A study of Homo sapiens with 6 samples.

Results

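The E2F and DP factors are the transcription factors that time entry into S phase. The group described here holds 10 genes, E2F1 to E2F8, TFDP1 and TFDP2, taken by their gene symbols in the platform annotation. They are 10 of the 19775 genes named there, and 22 of the 54613 probe sets on the array carry 1 of their symbols. A probe set is the group of array spots that reads 1 transcript, and its intensity is a relative signal. All 22 are reported. Brightness ranks probe sets only to choose the one that stands for a gene and does not compare amounts of RNA. The family was selected on this same comparison, with the differences between calactin and untreated arrays already known. Its differences and calls are therefore a description and support nothing further.

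RNA was measured in K562, an established human line from chronic myeloid leukaemia that carries the BCR-ABL1 fusion. In the calactin group, cells were exposed for 12 h to calactin, a plant cardenolide of the kind that inhibits the sodium pump, at 0.15 mM as labelled. In the untreated group, cells of the same line were kept for 12 h with no agent, and no vehicle is named in the labels. Each group had 3 arrays, called biological replicates 1 to 3, of 1 cell line, and nothing says further how separate the cultures were.

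E2F proteins bind DNA as a pair with a DP protein, encoded by TFDP1 or TFDP2. E2F1, E2F2 and E2F3 are classed as activators, which switch on genes for DNA synthesis once the retinoblastoma protein lets go of them. E2F4, E2F5 and E2F6 are classed as canonical repressors: E2F4 and E2F5 act with the pocket proteins p107 and p130 in resting cells, and E2F6 acts with Polycomb proteins. E2F7 and E2F8 are atypical repressors that bind DNA without a DP partner and are themselves E2F targets, shutting the programme down late in S phase.

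Activators were higher with calactin at most of their probe sets, E2F5 was lower and E2F8 higher among the repressors, and of the DP genes TFDP2 was higher. The limma fit over all 54613 probe sets called 11 of the 22 probe sets higher and 1 lower. Over all probe sets, 3.68% were called higher and 10.3% lower. Probe sets called higher belonged to 5 genes, E2F1, E2F2, E2F3, E2F8 and TFDP2, and the one called lower to E2F5. For E2F4, E2F6, E2F7 and TFDP1, no probe set was called. By class, 6 of 7 activator probe sets were called higher. Of 5 canonical repressor probe sets, 1 was called lower and 4 were not called. Of 3 atypical probe sets, 1 was called higher, and of 7 DP probe sets 4 were. In 12 of the 22 probe sets all 3 calactin arrays lay above all 3 untreated arrays, against 9.36% of all probe sets. In 1 they all lay below, against 19.0%, so that 13 did not overlap in either direction, against 28.4%. Counting calls in either direction, 12 of the 22 were called, against 13.9%. A call here means a p-value under 0.05 after Benjamini-Hochberg adjustment over all probe sets, and differences are on the log2(intensity + 16) scale, calactin minus untreated. Folds are computed from these differences, so the added 16 draws them toward 1.

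**Figure D1:**
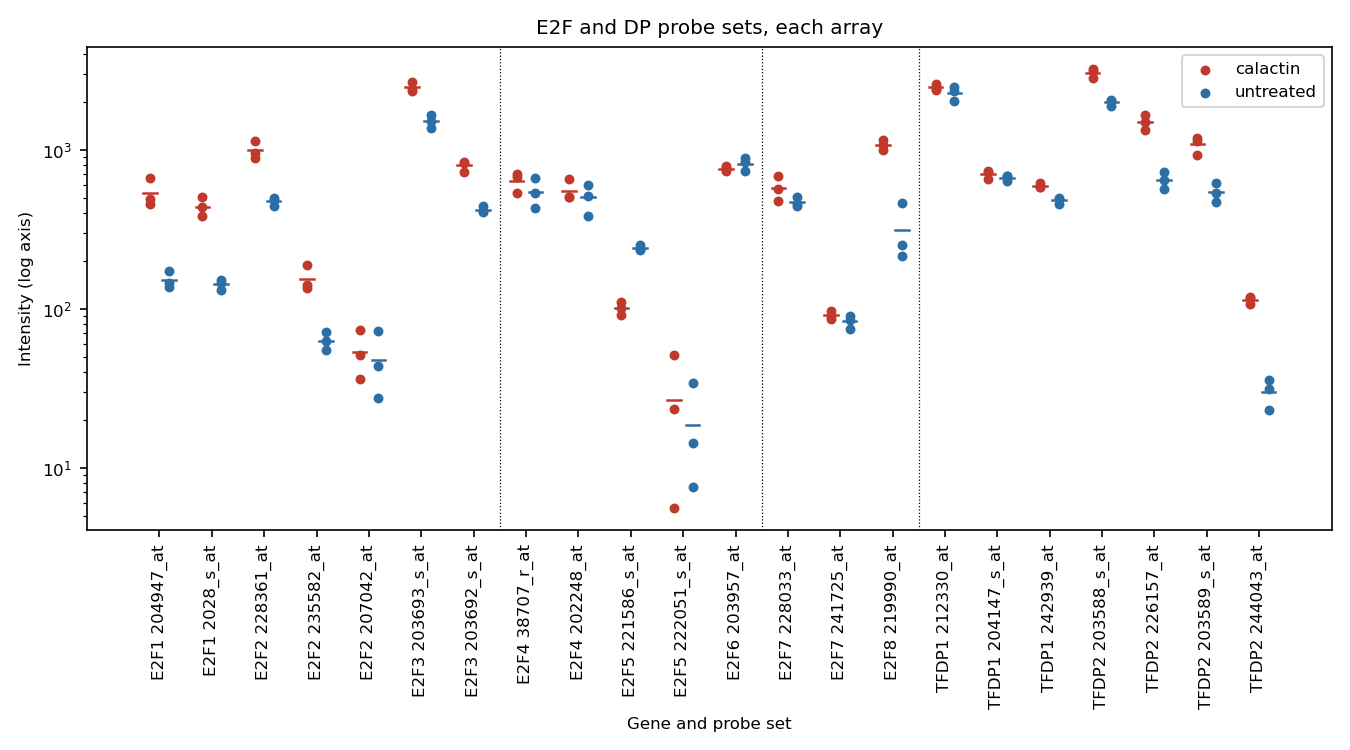
Intensity on a log axis of each of the 22 E2F and DP probe sets, with a point for each array and a bar for the group mean, calactin left of untreated and dotted lines between activators, canonical repressors, atypical members and DP partners. The 3 calactin points stand clear above the 3 untreated points in 12 probe sets and clear below in 1, that of E2F5.

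All 3 activators held E2F motifs just before an annotated start. Promoter sequences of 8 of the 10 genes were at hand in RefSeq's GRCh38.p14 table, as 11 annotated starts. E2F5 and E2F8, both called, were missing from it and were not searched. The 250 bases before each start at hand were searched on both strands for the E2F motif. The motif was spelled as TTTCGCG or TTTGGCG or TTTCCCG or TTTGCCG, the inner letters of the textbook site, a spelling settled after these promoters had been looked at. Of all 35116 promoters in the table, 7.33% held at least 1 such stretch and 0.456% held at least 2 that do not overlap. The 3 activator promoters are given here, 5′ to 3′ on the gene's strand and ending at the base before the start, because each holds 2 stretches, which stand in capitals. They are at chr20:33686386-33686635 for E2F1 (minus strand), chr1:23531234-23531483 for E2F2 (minus strand) and chr6:20401629-20401878 for E2F3 (plus strand).
E2F1: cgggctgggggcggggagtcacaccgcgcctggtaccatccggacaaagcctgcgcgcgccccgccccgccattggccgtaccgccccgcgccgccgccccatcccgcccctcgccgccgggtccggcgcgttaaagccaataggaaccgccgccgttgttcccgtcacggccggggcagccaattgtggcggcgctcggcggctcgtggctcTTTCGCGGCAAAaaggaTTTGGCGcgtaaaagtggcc
E2F2: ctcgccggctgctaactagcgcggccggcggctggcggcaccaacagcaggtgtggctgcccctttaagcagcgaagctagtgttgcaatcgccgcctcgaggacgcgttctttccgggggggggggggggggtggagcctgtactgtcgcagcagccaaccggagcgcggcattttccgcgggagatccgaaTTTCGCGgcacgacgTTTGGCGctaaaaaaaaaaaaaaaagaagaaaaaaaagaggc
E2F3: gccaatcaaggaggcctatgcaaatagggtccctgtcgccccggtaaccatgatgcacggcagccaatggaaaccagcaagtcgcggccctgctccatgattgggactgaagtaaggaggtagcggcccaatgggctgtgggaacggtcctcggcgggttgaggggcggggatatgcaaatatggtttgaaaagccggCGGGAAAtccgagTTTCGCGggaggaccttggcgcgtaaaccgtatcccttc
In E2F1, whose first stretch joins 2 overlapping matches on opposite strands, the matches lie between 37 and 14 bases before the start. In E2F2 they lie between 57 and 36 bases before it, and in E2F3 between 52 and 33. The E2F3 promoter shown is that of its first annotated start, and the second start held none.

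Among the genes searched, which leave out the called E2F5 and E2F8, the same letters were not confined to promoters of called genes. E2F6, which was not called, also held 2 stretches, and TFDP1, not called either, held 1. TFDP2, called at 4 of 4 probe sets, held none before any of its 3 annotated starts, nor did E2F4 or E2F7. The promoters of the first TFDP2 start, at chr3:142149545-142149794 (minus strand), and of E2F7, at chr12:77065570-77065819 (minus strand), are given for contrast, without a match in these windows.
TFDP2: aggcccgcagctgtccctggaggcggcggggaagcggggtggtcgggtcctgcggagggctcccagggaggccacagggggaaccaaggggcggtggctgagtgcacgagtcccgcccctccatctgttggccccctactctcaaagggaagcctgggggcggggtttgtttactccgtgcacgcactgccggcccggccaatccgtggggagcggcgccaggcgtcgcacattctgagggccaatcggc
E2F7: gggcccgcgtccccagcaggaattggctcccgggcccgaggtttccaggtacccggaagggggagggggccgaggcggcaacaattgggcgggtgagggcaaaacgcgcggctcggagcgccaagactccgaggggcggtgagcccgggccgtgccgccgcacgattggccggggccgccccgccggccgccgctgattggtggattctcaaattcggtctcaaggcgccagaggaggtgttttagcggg
The CCAAT letters of the NF-Y box, also searched on both strands, occurred 4 times before E2F7 and before the first start of E2F3, 3 times before E2F1 and 2 times before the first start of TFDP2. Of all promoters, 32.0% held it at least once and 9.41% held at least 2 that do not overlap. The letters TTTGAA of the CHR, a site of mitotic genes, were found before the first E2F3 start and before 2 of the TFDP2 starts, and in 13.3% of all promoters. A match is a run of letters and does not show binding.

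**Figure D2:**
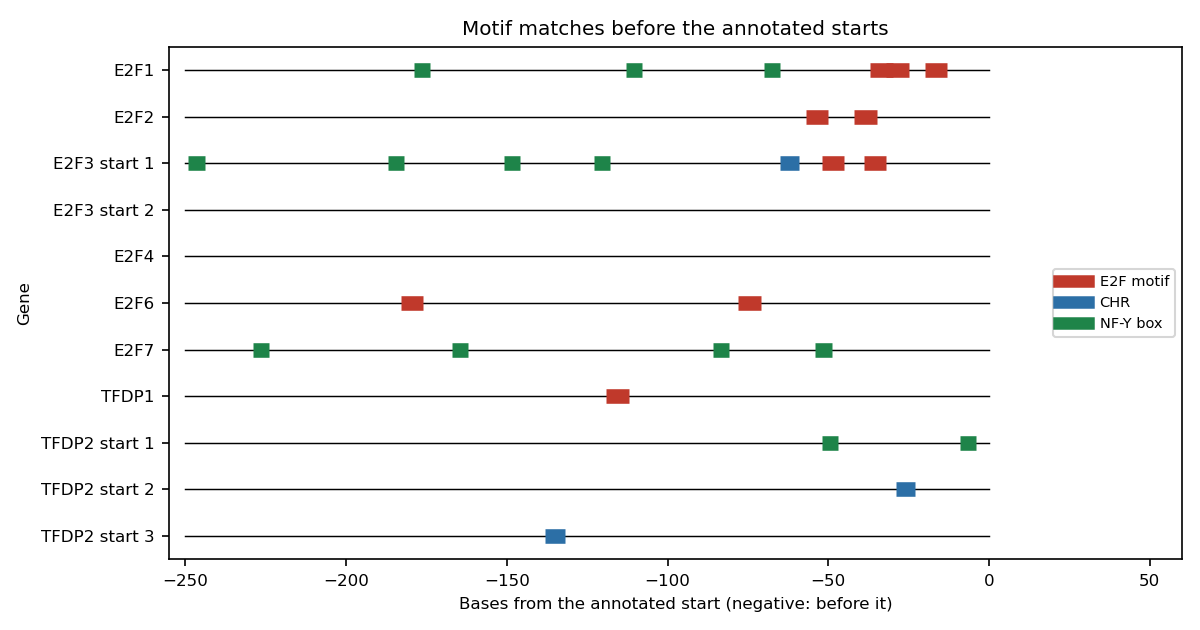
Positions of E2F motif, CHR and NF-Y box matches on either strand in the 250 bases before each of 11 annotated starts of 8 E2F and DP genes, with distance in bases from the start. E2F motifs crowd within 57 bases of the start in E2F1, E2F2 and the first start of E2F3, and lie farther out in E2F6 and TFDP1.

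E2F1, the activator best known for both S phase entry and cell death, lies on chromosome 20 (33675477 to 33686385, GRCh38.p14) and has 2 probe sets. At 204947_at its intensities were 489, 666 and 456 in calactin replicates 1, 2 and 3, against 136, 172 and 145 in untreated replicates 1, 2 and 3. At 2028_s_at they were 434, 503 and 380.1 with calactin, against 152, 145 and 130.4 untreated. Every calactin array lay above every untreated array at both, by a wide margin. The differences were 1.71 ± 0.16 and 1.51 ± 0.13 (log2, SE, n = 3 each), or 3.28-fold and 2.86-fold. Among the brightest probe sets of 19775 genes, that of E2F1 had the 12th largest rise.

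E2F2, an activator with a known part in red cell precursors, lies on chromosome 1 (23505212 to 23531233). At 228361_at its intensities were 883, 1132 and 957 with calactin, against 440.5, 495 and 484 untreated. The groups did not overlap and the difference was 1.04 ± 0.11. At 235582_at they were 141, 189 and 134 with calactin, against 70.9, 62.6 and 55.0 untreated, again without overlap, and the difference was 1.11 ± 0.17. The third probe set, 207042_at, read 51.2, 73.8 and 36.0 with calactin, against 71.9, 43.5 and 27.4 untreated. There the groups overlapped and the probe set was not called, at 0.16 ± 0.30. Its signal was low, not far above the median probe set of the array at 32.5, and its standard error was larger than those of the other E2F2 probe sets.

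E2F3 is the third activator and makes a long and a short form from separate starts. It lies on chromosome 6 (20401879 to 20493714). At 203693_s_at the intensities were 2404, 2654 and 2334 with calactin, against 1377, 1504 and 1644 untreated. At 203692_s_at they were 727, 826 and 841 with calactin, against 413, 442 and 405 untreated. Neither probe set showed an overlap of the groups, and the differences were 0.70 ± 0.09 and 0.90 ± 0.09. The annotation does not say which form either probe set reads. At the brightest probe set, the 3 activators were thus higher by 3.28-fold for E2F1, 2.05-fold for E2F2 and 1.63-fold for E2F3.

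Of the canonical repressors, only E2F5 had a called probe set, and it was lower with calactin. E2F5, which works with p130, lies on chromosome 8 (85177154 to 85214518). At 221586_s_at its intensities were 101, 91.2 and 110.1 with calactin, against 238, 234 and 251 untreated. The groups were far apart relative to their spread, and E2F5 fell by 1.14 ± 0.12 on the log2 scale, to 0.453 of the untreated level. Its other probe set, 222051_s_at, is the only one of the 22 below the median probe set of the array. It read 23.3, 50.9 and 5.61 with calactin, against 7.56, 34.1 and 14.3 untreated, so the arrays were interleaved, at 0.22 ± 0.42.

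E2F4, the most widely used repressor E2F, lies on chromosome 16 (67192155 to 67198918). At 38707_r_at it read 706, 672 and 531 with calactin, against 666, 432 and 531 untreated, and at 202248_at 653, 501 and 506, against 602, 385 and 514. The groups overlapped at both probe sets, with differences of 0.23 ± 0.17 and 0.15 ± 0.17. Within replicate numbers the difference at 38707_r_at was 0.08, 0.62 and -0.002 for numbers 1, 2 and 3, so number 2 stood apart. E2F6, which lacks the pocket protein and activation regions of its relatives, lies on chromosome 2 (11444375 to 11466161). It read 734, 785 and 765 with calactin, against 734.0, 880.2 and 836 untreated, at -0.10 ± 0.09, and was not called. A missed threshold does not show that either gene stayed level.

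Of the atypical members, E2F8 was called higher and E2F7 was not called; the difference between them was not tested. E2F8, on chromosome 11 (19224063 to 19241655), read 990.4, 1069 and 1156 at 219990_at with calactin, against 216, 464 and 253 untreated. All calactin arrays lay above all untreated ones, and untreated replicate 2 was the highest of its group. The difference was 1.81 ± 0.24, or 3.50-fold, the 7th largest rise among the brightest probe sets of 19775 genes. Without untreated replicate 2 the difference was 2.12, and within replicate numbers it was 2.12, 1.18 and 2.12 for numbers 1, 2 and 3. In replicates 1 and 2 alone, a check added after the data were seen, the E2F8 difference was 1.65 and was not called (limma adjusted p = 0.0859).

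E2F7, on chromosome 12 (77021251 to 77065569), was not called at either of its 2 probe sets. At 228033_at it read 474, 686 and 567 with calactin, against 444, 456 and 506 untreated, at 0.27 ± 0.14, with the groups overlapping. At 241725_at it read 85.8, 96.1 and 90.1 with calactin, against 89.6, 75.0 and 85.4 untreated, at 0.10 ± 0.14. At 228033_at it was called higher, at 0.44, under quantile normalization.

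Of the DP genes, TFDP2 was called higher and TFDP1 was not called; their difference was not tested either. TFDP2, which encodes DP2, lies on chromosome 3 (141944428 to 142149544) and was called higher at 4 of 4 probe sets. At 203588_s_at, the brightest, it read 2825, 3217 and 3114 with calactin, against 1887, 2048 and 2023 untreated. At 226157_at it read 1331, 1662 and 1493 with calactin, against 569, 719 and 647 untreated. At 203589_s_at it read 923, 1184 and 1129 with calactin, against 466, 619 and 534 untreated. None of these overlapped, nor did 244043_at, with 106, 119 and 117 against 31.4, 23.1 and 35.9. Across the 4 probe sets the difference was 0.61 ± 0.08, 1.19 ± 0.12, 0.98 ± 0.13 and 1.50 ± 0.17 in that order. The direction was thus shared while the size was not.

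TFDP1, which encodes the more widely used partner DP1, lies on chromosome 13 (113584688 to 113641473) and was not called at any of its 3 probe sets. At 212330_at it read 2385, 2595 and 2421 with calactin, against 2331, 2023 and 2483 untreated, with overlap, at 0.12 ± 0.09. At 204147_s_at it read 653, 738 and 728 with calactin, against 683, 633 and 686 untreated, at 0.08 ± 0.09. At 242939_at, however, it read 580, 579 and 618 with calactin, against 453, 499 and 487 untreated, without overlap, at 0.30 ± 0.09. That probe set missed the threshold in the fit without a block and was called higher with the replicate number as a block.

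**Figure D3:**
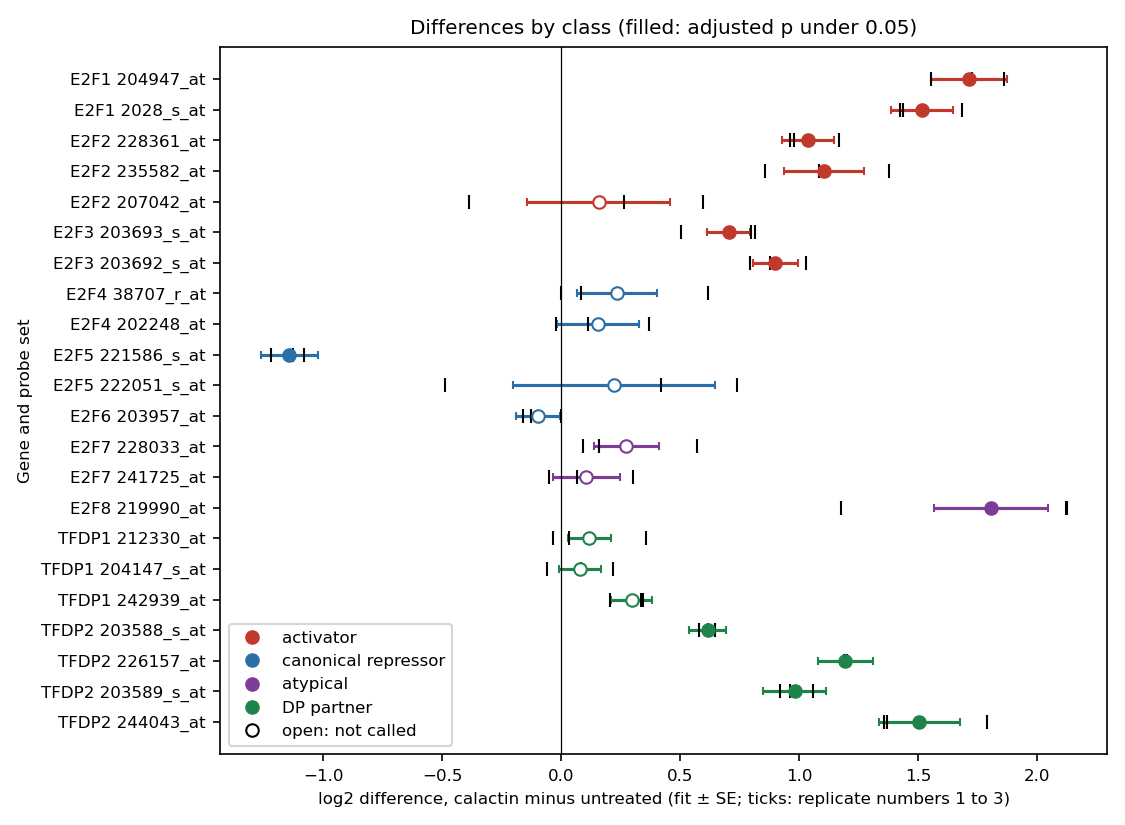
Log2 difference, calactin minus untreated, of each E2F and DP probe set with its SE (n = 3 each), coloured by class, filled where called; black ticks give the difference within replicate numbers 1, 2 and 3. Activators and TFDP2 lie between 0.61 and 1.71 where called, E2F8 at 1.81, and E2F5 at -1.14.

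Calactin replicate 2 was the highest of the 3 calactin arrays in 16 of the 22 probe sets and in 9 of the 12 called ones. Over the 27305 probe sets above the median signal it was the highest in 37.0%. Untreated replicate 2 was the highest untreated array in 10 of the 22 and in 7 of the 12 called ones, against 37.5%. Their part in the E2F differences was not tested. Probe sets read on the same arrays are not independent of each other. At every called probe set the groups did not overlap. The same sign at all 3 replicate numbers follows from that and is no separate result.

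Overall signal and spike controls differed between arrays and touch all of these values. The array median was 31.1 to 32.0 with calactin and 33.0 to 34.3 untreated. The poly-A spikes, transcripts added to the RNA before labelling, averaged 83.4 to 1135 with calactin and 112 to 1896 untreated, and replicate 3 was the low one in both groups. The median difference over all probe sets was -0.05. Quantile normalization, median centring and hybridisation spike scaling moved it to 0.02, 0.01 and 0.05, and poly-A spike scaling with the replicate block moved it to 0.49. Under the last, all 22 family probe sets were called, 21 of them higher, with 24670 of all probe sets called higher, and E2F5 was still lower at -0.61. E2F6 was called higher at 0.44 there, which is below that median, and was at 0.05 and not called under quantile normalization. In K562, 7 of 7 measured erythroid markers lay above the median probe set. Their summed intensity was 38328 to 47227 with calactin and 41855 to 47400 untreated, most of it from HBE1 and HBZ. Of the 7, GATA1 fell by 0.86 ± 0.18 (limma adjusted p = 0.0121), TFRC fell by 0.55 ± 0.07 (limma adjusted p = 9.73e-04) and TAL1 rose by 0.92 ± 0.10 (limma adjusted p = 7.54e-04), and the part of these changes in the E2F results was not tested. Summed T cell markers read 1760 to 1945 against 2253 to 2650, of which CD3D, at 1634 to 1809 with calactin and 2157 to 2550 untreated, was called lower, and CD3G and LCK were below the median probe set. B cell markers summed to 108 to 127 against 109 to 129, with MS4A1 and PAX5 below it. Monocyte markers summed to 678 to 824 against 854 to 908, epithelial markers to 8733 to 9944 against 12200 to 14903, and fibroblast markers to 904 to 1135 against 985 to 1218, with CD14, CDH1 and COL3A1 below it. Of the epithelial markers KRT18 was called lower, at -0.66 ± 0.10, and of the fibroblast markers COL1A2, at -0.80 ± 0.16. No B cell or monocyte marker was called. T cell, monocyte and epithelial sums were lower in every calactin array, and their part in the E2F results was not tested.

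**Figure D4:**
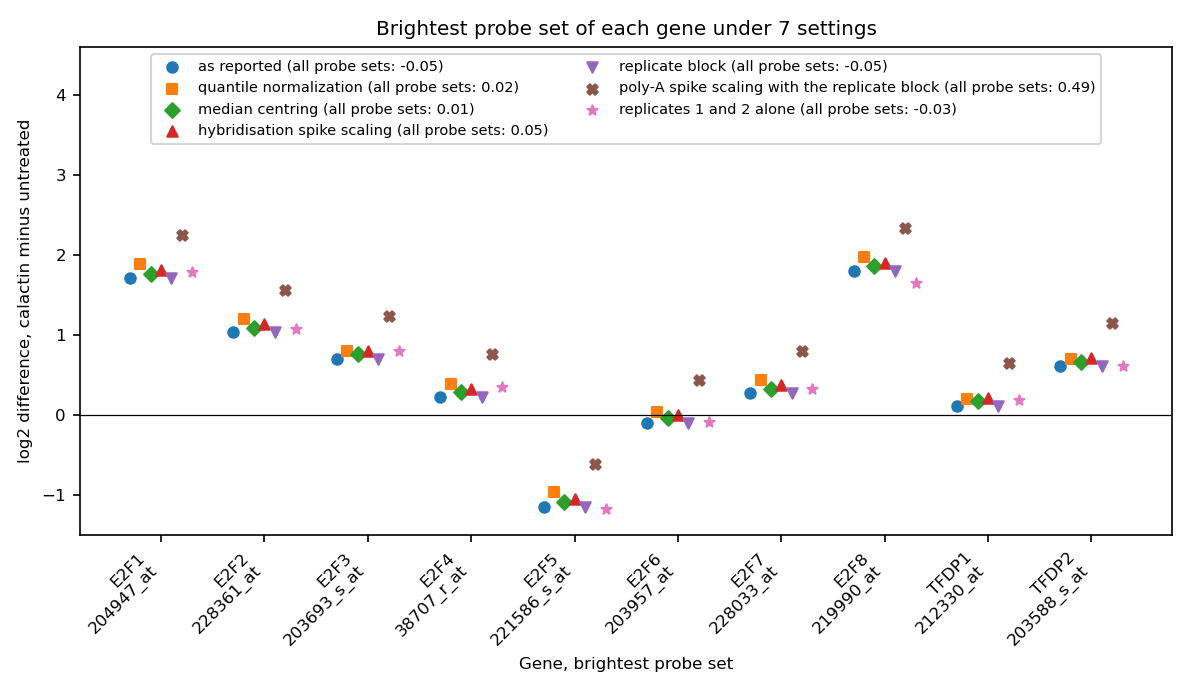
Log2 difference, calactin minus untreated, of the brightest probe set of each E2F and DP gene as reported and under 6 other settings, with the median of all probe sets under each setting in the legend. E2F1, E2F2, E2F3, E2F8 and TFDP2 stay above 0 and E2F5 below 0 in all 7, while E2F6 changes sign. E2F4, E2F7 and TFDP1, not called as reported, also stay above 0 in all 7. The replicate block leaves each difference as reported.

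Of 9 genes of the pocket proteins and the DREAM core, the complex that holds E2F4 or E2F5 on cell cycle genes, 6 were not called, 1 rose and 2 fell, with a median of -0.02. Over all genes read from the brightest probe set, 4.41% rose and 15.2% fell, with a median of -0.06. With the replicate block 2 rose and 3 fell, under quantile normalization or median centring 2 rose and 2 fell, under hybridisation spike scaling 1 rose and 1 fell, and under poly-A spike scaling with the block 6 rose and 0 fell. Over all 54613 probe sets the calls higher and lower were 2864 and 7044 with the block. They were 3379 and 4082 under quantile normalization and 2587 and 5006 under median centring. Hybridisation spike scaling gave 1300 and 2412, and poly-A spike scaling with the block 24670 and 1747. Without an eBayes trend they were 1515 and 4726, and with 1 array left out 1222 to 1949 and 3640 to 4832. These totals hold for the lists below too. They count probe sets, whereas a list counts 1 brightest probe set per gene, so the shares are not directly comparable. LIN52, a DREAM subunit whose phosphorylation brings in p130, read 383, 395 and 454 with calactin, against 136, 113 and 165 untreated. It rose by 1.48 ± 0.15 (limma adjusted p = 4.41e-04, n = 3 each), with no overlap. RBL2, which encodes p130, read 401, 519 and 525 with calactin, against 746, 1003 and 786.5 untreated, and fell by 0.79 ± 0.15 (adjusted p = 0.00745 by limma). LIN37, another DREAM subunit, fell by 0.76 ± 0.16 (adjusted p = 0.0128 by limma). RBL1, which encodes p107, was at 0.41 ± 0.12 and was not called (adjusted p = 0.0658 by limma), though it was with the replicate block. The calls of RBL2 and LIN37 were lost under poly-A spike scaling with the block, at -0.26 and -0.23.

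Of 9 measured genes of the Polycomb complex that E2F6 joins, 5 were not called, 3 fell and 1 rose, with a median of -0.09. Over all genes 15.2% fell and 4.41% rose, against 33.3% and 11.1% of this list. Adding the replicate block gave 3 lower and 2 higher. Under quantile normalization 3 fell and 3 rose, under hybridisation spike scaling 1 fell and 0 rose, and under poly-A spike scaling with the block 1 fell and 5 rose. PCGF6, the ring finger protein that defines this complex, read 175, 202 and 221 with calactin, against 510.4, 486 and 548 untreated. It fell by 1.31 ± 0.12 (adjusted p = 2.85e-04 by limma), without overlap. MAX, a DNA-binding partner in it, fell by 0.57 ± 0.11 (adjusted p = 0.00751 by limma). CBX3, a chromodomain protein, fell by 0.25 ± 0.06 (adjusted p = 0.0227 by limma), and YAF2 rose by 0.49 ± 0.12 (adjusted p = 0.0289 by limma). Without calactin replicate 1, 2 or 3, without untreated replicate 2, or without an eBayes trend, the CBX3 and YAF2 calls were lost and 2 of the 9 genes were called, both lower. The CBX3 call was also lost without untreated replicate 3, and the YAF2 call without untreated replicate 1. CBX3 was positive, at 0.28, under poly-A spike scaling with the block.

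Of 38 measured target genes of E2F in G1 and S phase, 27 were not called, 6 rose and 5 fell, with a median of 0.07. Over all 19775 genes 15891 were not called, 4.41% rose and 15.2% fell, against 15.8% and 13.2% of this list. The split depended on the scaling, with 12 higher and 3 lower under quantile normalization, 10 higher and 3 lower under median centring, 4 higher and 2 lower under hybridisation spike scaling, and 32 higher and 1 lower under poly-A spike scaling with the block. Without an eBayes trend 4 were higher and 2 lower, and with the replicate block 8 were higher and 6 lower. Leaving out calactin replicate 1 or 3, or untreated replicate 2 or 3, gave 4 higher and 2 lower, and leaving out calactin replicate 2 gave 4 higher and 3 lower. CDC25A, the phosphatase that activates cyclin kinases, read 2541, 2888 and 2600.4 with calactin, against 1193, 1630 and 1283 untreated, and rose by 0.97 ± 0.12 (adjusted p = 0.00113 by limma). MCM5, of the replicative helicase, rose by 0.57 ± 0.09 (adjusted p = 0.00324 by limma). PRIM1, the catalytic primase subunit, read 709, 806 and 823 with calactin, against 1820, 2098 and 1970 untreated, and fell by 1.32 ± 0.09 (adjusted p = 1.56e-04 by limma). BRCA1, of recombination repair, fell by 0.81 ± 0.08 (adjusted p = 5.34e-04 by limma). Of the 35 of these genes with a promoter in the table, 16 held the E2F motif at the first start listed, the only one searched for list genes. That is 45.7%, against 7.33% of all promoters, which count every start in the table. The list was drawn up as E2F targets, so this share is a description and supports nothing further.

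Among 20 mitotic genes that DREAM binds, 14 were not called, 5 rose and 1 fell, with a median of 0.16. The shares were 25% higher and 5% lower, against 4.41% and 15.2% of all genes. The replicate block gave 8 higher and 1 lower. Under hybridisation spike scaling 3 rose and 0 fell, and under poly-A spike scaling with the block 19 rose and 0 fell. That last setting called 24670 of all 54613 probe sets higher. BIRC5, which encodes survivin, read 4899, 4739 and 4334 with calactin, against 2984, 3093 and 3025 untreated, and rose by 0.61 ± 0.07 (adjusted p = 7.38e-04 by limma). FOXM1, a transcription factor of G2 and mitosis, rose by 0.65 ± 0.09 (adjusted p = 0.00186 by limma), and AURKA, a centrosome kinase, by 0.49 ± 0.09 (adjusted p = 0.00649 by limma). BUB1, a checkpoint kinase, fell by 0.60 ± 0.07 (adjusted p = 9.33e-04 by limma). That list held the E2F motif in 1 of 15 promoters at hand, or 6.67%, against 7.33% of all promoters. It was held in 4 of 9 for the pocket protein and DREAM list and 2 of 9 for the Polycomb list. For the cell death list it was 2 of 10, and for the E2F-modifying enzymes 0 of 10.

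Of 10 measured genes that E2F1 is known to induce in cell death, 7 were not called, 2 rose and 1 fell, with a median of 0.26. The shares were 20% higher and 10% lower, against 4.41% and 15.2% of all genes. With the replicate block 4 rose and 1 fell, under hybridisation spike scaling 1 rose and 1 fell, and under poly-A spike scaling with the block 7 rose and 1 fell. PMAIP1, the BH3-only gene NOXA, read 1253, 1264 and 1343 with calactin, against 838, 700.2 and 932 untreated, and rose by 0.64 ± 0.11 (adjusted p = 0.00515 by limma). SIVA1 rose by 0.51 ± 0.10 (adjusted p = 0.00987 by limma), a call that ended without calactin replicate 2 and without untreated replicate 3. APAF1, the core of the apoptosome, read 183, 191 and 161 with calactin, against 389, 366 and 453 untreated, and fell by 1.10 ± 0.12 (adjusted p = 7.11e-04 by limma). BCL2L11, which encodes BIM, was at 0.25 ± 0.09 and was not called (adjusted p = 0.135 by limma), though it was with the block.

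Among 10 enzymes that modify or degrade E2F proteins, 5 were not called, 2 rose and 3 fell, with a median of -0.10. The shares were 20% higher and 30% lower, against 4.41% and 15.2% of all genes. Under hybridisation spike scaling 2 rose and 0 fell, and under poly-A spike scaling with the block 6 rose and 0 fell. Without an eBayes trend 1 rose and 3 fell, and with the replicate block 3 rose and 3 fell. KAT2B, an acetyltransferase known to acetylate E2F1, read 721, 1046 and 708 with calactin, against 322, 425 and 373 untreated, and rose by 1.10 ± 0.17 (adjusted p = 0.00301 by limma). PRMT5, an arginine methyltransferase, fell by 0.51 ± 0.06 (adjusted p = 0.00130 by limma), and KDM1A, a lysine demethylase, by 0.44 ± 0.06 (adjusted p = 0.00252 by limma). CHEK2, a kinase of the DNA damage response that phosphorylates E2F1, fell by 0.72 ± 0.14 (adjusted p = 0.0112 by limma), a call that ended when calactin replicate 1, calactin replicate 3 or untreated replicate 3 was left out. Each of these left 1 gene of the list called higher and 2 lower. PRMT5 and KDM1A were at 0.02 and 0.09 under poly-A spike scaling with the block.

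**Figure D5:**
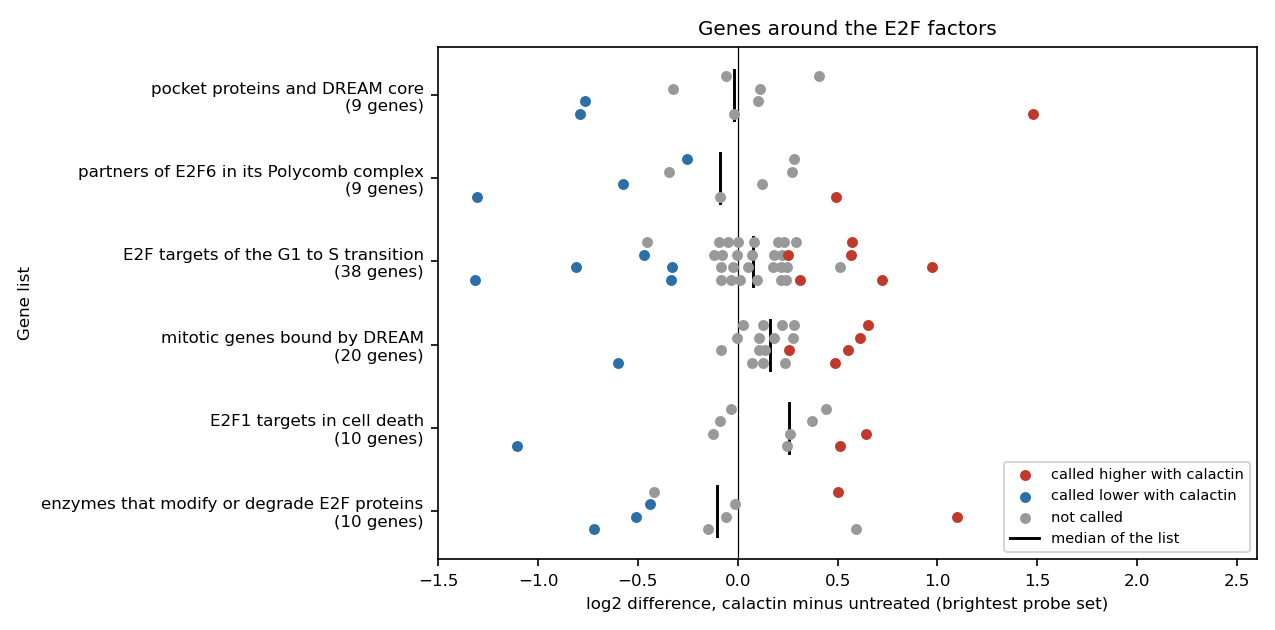
Log2 difference, calactin minus untreated, of each measured gene in 6 lists around the E2F factors, read at its brightest probe set, with the list median as a black bar. Calls lie on both sides of 0 in all 6 lists, and the medians lie between -0.10 and 0.26.

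The genes most like 3 of the members over the 6 arrays were named by Pearson correlation of log2 signals, as a description. The groups are apart for each of these genes, so the correlations mostly repeat that difference, and 371 to 394 genes of 12547 passed 0.95 for each member. E2F1 was most like H2AX, SIAH2 and G0S2, at 0.999, 0.996 and 0.996. E2F2 was most like ACER3, INTS7 and YBEY, at 0.999, 0.998 and 0.998. E2F8 was most like PPP4R2, HEIH and SRSF10, at 0.996, 0.996 and 0.995.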

How the data were processed

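Per the labels' protocols, total RNA from K562 was made into biotinylated cRNA, from 8 ug, for 1-colour Affymetrix arrays. The deposited values are linear intensities as the authors processed them; the summary method, background correction and scaling are not given in the sources that were used. Of 54675 probe sets, 62 array controls were left out of the tests. Symbols came from the platform annotation, 41091 probe sets carried 1 symbol, 1801 several and 11721 none, and none was named from several.

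Values were turned into log2(intensity + 16), and limma 3.58.1 under R 4.3.3 (lmFit, then eBayes, letting the variance follow the mean) fitted calactin against untreated arrays over 54613 probe sets, two-sided, with Benjamini-Hochberg adjustment and a threshold of 0.05. A gene of a list was read from its probe set with the highest mean. Precision is set by the small number of arrays, which leave 4 residual degrees of freedom per probe set. The fit was tested on simulated data. Plots used matplotlib 3.10.9.

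The members and the 6 lists were chosen with earlier results of these data known. Named were all members, the 4 genes with the smallest p in each list, and the 3 genes most like E2F1, E2F2 and E2F8 among genes above the median signal. Of 102 listed genes, 6 were not analysed here for want of a probe set with their symbol alone.

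Alternatives were quantile normalization, median centring, hybridisation spike scaling, poly-A spike scaling with the replicate block, a pseudocount of 1 or 64, probe sets above the median signal alone, eBayes without a trend or robust, the replicate block, each array left out, and 1 probe set per gene. Replicates 1 and 2 alone was added after seeing the weak poly-A spikes of replicate 3.

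Replicate numbers came from the titles. Over 27305 probe sets above the median signal, deviations of calactin and untreated arrays of a number correlated at 0.415, 0.325 and 0.240, and with other numbers at -0.010 at most, so the numbers count as pairs. The calls reported come from the fit without the block. The blocked fit is an alternative, given where it changed the call of a member or named pathway gene or the counts of a list.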

Additional observations from a re-analysis of the deposited data

Results flagged for a closer look

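The middle and 5′ control probe sets for 28S ribosomal RNA, outside the tests, read higher with calactin, and the 3′ one did not. The middle one read 10036, 13172 and 7119 with calactin, against 616, 1051 and 529 untreated, or 13.7-fold on the log2(intensity + 16) scale. The one toward the 5′ end read 980.4, 1490 and 589 with calactin, against 420, 468 and 355 untreated, or 2.26-fold. In both, every calactin array lay above every untreated one. The third, toward the 3′ end, read 25.1, 17.2 and 12.9 with calactin, against 19.4, 16.1 and 26.0 untreated, with overlap. Their part in the E2F results was not tested.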

How the results depend on the processing

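Of the 22 E2F and DP probe sets, 12 were called as reported and 12 when any 1 array was left out (lowest 12, highest 12). Under poly-A spike scaling with the replicate block 22 were called. With 1 probe set per gene 6 of 10 were called, since fewer probe sets were tested. In replicates 1 and 2 alone 8 were called, and the E2F8 call, 2 TFDP2 calls (203588_s_at and 203589_s_at) and the call of E2F2 at 235582_at were lost. Over all 54613 probe sets, that setting called 340 higher and 1279 lower, against 2011 and 5600 as reported. The replicate block gave 13 calls, adding TFDP1 at 242939_at, and quantile normalization 14. E2F1, E2F3 and E2F5 kept their called probe sets under all alternatives that held them. E2F6 was positive and called, at 0.44, under poly-A spike scaling with the block.

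Of 96 pathway genes, 32 were called, 44 with the replicate block, 22 without an eBayes trend, 16 under hybridisation spike scaling, 78 under poly-A spike scaling with the block, 8 in replicates 1 and 2 alone and 21 to 26 with 1 array left out. Of the 32, 17 were higher and 15 lower, where 4.41% of all genes were called higher and 15.2% lower. Calls over all 54613 probe sets moved as well. Higher and lower, they were 2011 and 5600 as reported, 2864 and 7044 with the block, and 1515 and 4726 without a trend. Hybridisation spike scaling gave 1300 and 2412, poly-A spike scaling with the block 24670 and 1747, and replicates 1 and 2 alone 340 and 1279. With 1 array left out they were 1222 to 1949 and 3640 to 4832. Among the named pathway genes, LIN37, MAX, CBX3, YAF2, BUB1, AURKA, SIVA1, PRMT5, KDM1A and CHEK2 lost their calls under hybridisation spike scaling, and MAX, BRCA1, BUB1 and CHEK2, besides RBL2 and LIN37, under poly-A spike scaling with the block, all with the sign kept unless given next. In replicates 1 and 2 alone, LIN52, PCGF6, PRIM1, BRCA1, MCM5, BIRC5 and APAF1 kept theirs and the other called ones named did not. Signs turned under poly-A spike scaling with the block for CBX3 (0.28), PRMT5 (0.022) and KDM1A (0.092), which are below the median of all probe sets there. The causes were not tested. Of all calls, 73.6% were lower as reported, 54.7% after quantile normalization, 65.9% after centring on the median, 65.0% with hybridisation spikes as the scale and 6.61% under poly-A spike scaling with the block. Beyond the cases given, the block changed no call among the members and the named pathway genes. Intensities near background limit the dimmest E2F5, E2F2 and TFDP2 probe sets.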
